A study of Mus musculus with 15 samples.

Results

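The genes described here are 40 cell cycle genes, read from the 46078 genes of a count table of the mouse RPE (retinal pigment epithelium), a sheet of pigmented cells that supports the photoreceptors. They were chosen by symbol as a list of cyclins, cyclin-dependent kinases (CDKs), their inhibitors and genes of DNA replication and mitosis, and all 40 symbols matched a gene of the table. By textbook role, 15 were grouped as G1 regulators (G1 cyclins and kinases, CDK inhibitors, pocket proteins and E2F), and the other 25 as proliferation genes (proliferation markers, replication, nucleotide supply, S, G2 and M phase kinases and spindle genes). RNA sequencing covered 15 libraries from female mice at postnatal day 14, taken 2 hours after light onset. The series title asks about compensation among receptors that recognise phosphatidylserine, the lipid exposed by dying cells and by shed photoreceptor outer segments.

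The libraries formed 4 groups. Mertk KO (4 libraries) carried a disrupted Mertk, the receptor kinase through which the RPE engulfs outer segments, and Mertk WT (4 libraries) carried wild-type Mertk. Bai1 Tg pos (3 libraries) and Bai1 Tg neg (4 libraries) both carried wild-type Mertk and differed in the label for a transgene of Bai1, a phosphatidylserine receptor whose gene symbol is Adgrb1. All groups shared one strain label, a mixture of c57Bl/6J with the B6;129-Mertktm1Grl/J knockout line. The sources used here do not give the promoter or species of the transgene, or whether animals were pooled. Replicates are not stated to come from separate mice, so a p-value measures only how far these libraries spread, which may be technical.

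In a dividing cell, D-type cyclins with Cdk4 and Cdk6, then E-type cyclins with Cdk2, phosphorylate the pocket proteins Rb1 and Rbl2 and so release E2F factors, which switch on the genes of DNA replication. Cdkn1a, Cdkn1b and Cdkn1c inhibit these kinases, and Cdkn2c blocks Cdk4 and Cdk6. In resting cells a pocket protein of the Rbl family joins the MuvB core to form the DREAM complex, which represses genes of S phase and mitosis, the latter often through a promoter element called CHR. RPE cells stop dividing early in life and normally stay out of the cell cycle for the life of the animal.

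The targeted genes served as checks of the labels. Mertk was at 178 ± 18.9 CPM (fragment counts scaled to library size with TMM factors; SD, n = 4) in Mertk KO and at 246 ± 12.98 CPM (n = 4) in Mertk WT, so it fell but was still detected in the knockout (log2 fold change -0.48 ± 0.086, adjusted p = 0.0461, edgeR). Adgrb1 was found at 166 to 169.9 CPM in every Bai1 Tg pos library, at 143.5 CPM in the library labelled Bai1 Tg neg 4 and at no more than 0.436 CPM in the other 11. That library goes against its label, so most fold changes and counts that rest on it are given with and without it. Some group sums, list counts and medians are given with it only. Rpe65, the retinoid isomerase that defines the RPE, was at 4175 to 6667 CPM throughout. Library totals ran from 9591129 to 20024507 counts. The detection floor was set at 3 counts, which is 0.150 to 0.313 CPM. The labels' first tag number, whose meaning is not given, was 12 in every Bai1 library and 17 or 21 in the Mertk libraries, so it cannot be told apart from the Mertk or Bai1 set.

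The G1 regulators were far more abundant than most proliferation genes. Their median was 30.6 CPM, or 6.39 CPM per kb of exon length, the scale used to compare genes. The proliferation genes had a median of 1.74 CPM, or 0.507 CPM per kb, and all 14520 genes tested over the 15 libraries had one of 18.2 CPM, or 4.76 CPM per kb. The split was not complete. Of the 25 proliferation genes, 11 were at or under 3 counts in at least 1 library, but 14 were above that floor in every library and 5 averaged above 10 CPM. These 5 were Rrm1, a ribonucleotide reductase subunit, Cdk1, the kinase of mitosis, and the helicase subunits Mcm4, Mcm2 and Mcm7. Among the G1 regulators, 14 of 15 were above the floor in every library, the exception being Cdkn2c, and 1, Ccne2, averaged below 1 CPM.

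Ccnd1, a D-type cyclin, led the list per length at 64.6 CPM per kb. Cdk2 followed at 46.7 CPM per kb, then Cdkn1b at 32.2, Ccnd3 at 22.9, Cdk4 at 18.7 and Ccnd2 at 13.3 CPM per kb. Ccnd1 was above Cdk2 in 13 of 15 libraries, and each of the next 4 steps down, as well as that from Ccnd2 to Rbl2 (7.35 CPM per kb), held in 15 of 15. The neighbours E2f3 (6.39 CPM per kb) and Rrm1 (6.37 CPM per kb) were not ordered, E2f3 being higher in 7 of 15. The lowest member was Cenpf, a kinetochore protein, at 0.0299 CPM per kb, below its neighbour Cenpe in 15 of 15 libraries. Mki67, the antigen used to stain dividing cells, was at 0.173 CPM per kb and Top2a, the topoisomerase of dividing cells, at 0.206.

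**Figure D1:**
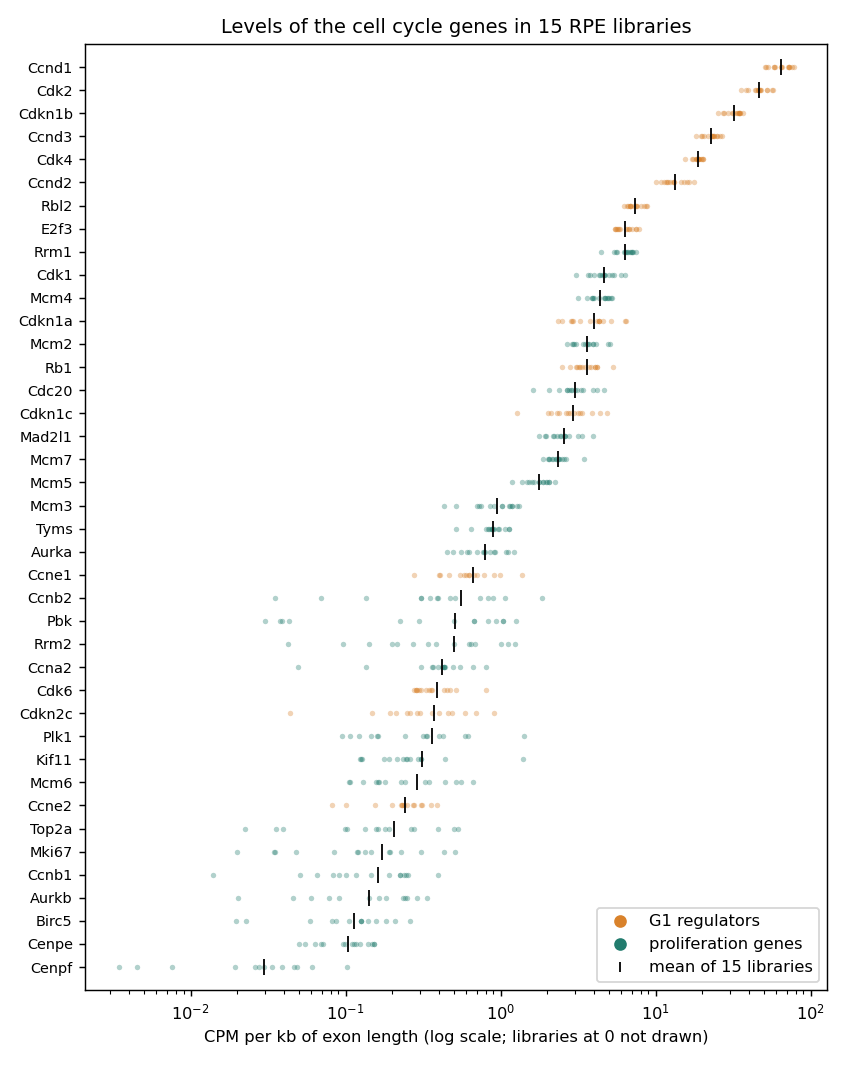
Level of each of the 40 cell cycle genes in CPM per kb of exon length (log scale), with 1 point per library (15 libraries), orange for G1 regulators and green for proliferation genes, and a black tick at the mean. Ccnd1 leads at 64.6 CPM per kb and Cenpf is lowest at 0.0299; the 8 highest genes are all G1 regulators, and Rrm1, Cdk1 and Mcm4 lead the proliferation genes.

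Some of these levels are uncertain because counting ignored strand. Exon bases were shared with another gene by 12 members, and for 9 of them an opposite-strand partner was above 1 CPM. Cdk4 shares 604 bases with Tspan31 (76.7 CPM), Ccnd1 818 bases with LTO1 (24.3 CPM) and Rbl2 693 bases with Aktip (79.7 CPM). Among the low members, Ccna2 shares 510 bases with Exosc9 (15.5 CPM), Ccne2 609 bases with Ints8 (21.2 CPM) and Cdc20 53 bases with Elovl1 (212 CPM). Cdk2 lies beside Pmel, a pigment granule gene at 2885 CPM, but shares 0 exon bases with it. Ccnb1 has near-identical pseudogene copies, so its low counts may be split between them.

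Promoters of the members differed in their motifs, and 6 are shown as examples that hold letters of the motifs searched here, CCAAT alone in Cdkn1b. RefSeq windows of 300 bases (250 before to 50 after the start, GRCm38.p6) existed in the table used for 31 members, 10 of them G1 regulators and 21 proliferation genes, and a gene was counted when any of its windows held the letters. Both strands were searched for the CHR letters TTTGAA, for CCAAT, and for 4 E2F forms, TTTCCCGC, TTTCGCGC, TTTGCCGC and TTTGGCGC. The CHR letters were found for 10 of 21 proliferation genes (47.6%) and 2 of 10 G1 regulators (20%), beside 20.2% of all 27025 genes with a window. CCAAT was found for 18 of 21 (85.7%) and 5 of 10 (50%), beside 41.1%, and an E2F form for 5 of 21 (23.8%) and 2 of 10 (20%), beside 2.6%. Such a match is a description of the letters and not a bound site.

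Stretches of these windows are printed 5′ to 3′ on the gene's strand, with motif letters in capitals on either strand (TTCAAA is TTTGAA reversed and ATTGG is CCAAT reversed). Mki67, Top2a and Cdc20, the activator of the anaphase-promoting complex, show CHR and CCAAT letters together. Cdk1 holds all 3 kinds, and Mcm5, a helicase subunit, holds overlapping E2F forms and CCAAT. The window of Cdkn1b, whose RNA was abundant, holds CCAAT and neither of the other kinds. Its CCAAT matches lie at -161, -35 and 45 from the start, and the stretch printed here shows only that at -35 in full. The stretches of Top2a, Cdk1 and Mcm5 also leave out some matches of their windows.
Mki67 (chr7:135716380-135716579, minus strand): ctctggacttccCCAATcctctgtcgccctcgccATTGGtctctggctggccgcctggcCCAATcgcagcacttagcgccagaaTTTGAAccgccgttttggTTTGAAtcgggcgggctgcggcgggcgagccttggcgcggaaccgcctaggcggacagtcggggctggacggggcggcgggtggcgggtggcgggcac
Top2a (chr11:99024190-99024349, minus strand): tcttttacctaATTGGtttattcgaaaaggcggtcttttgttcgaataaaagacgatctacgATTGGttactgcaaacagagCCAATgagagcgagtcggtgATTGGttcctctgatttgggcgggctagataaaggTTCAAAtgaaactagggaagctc
Cdc20 (chr4:118437344-118437503, minus strand): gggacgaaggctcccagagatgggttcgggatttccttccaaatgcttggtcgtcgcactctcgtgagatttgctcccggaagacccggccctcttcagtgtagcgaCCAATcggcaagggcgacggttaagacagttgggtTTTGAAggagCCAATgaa
Cdk1 (chr10:69352913-69353072, minus strand): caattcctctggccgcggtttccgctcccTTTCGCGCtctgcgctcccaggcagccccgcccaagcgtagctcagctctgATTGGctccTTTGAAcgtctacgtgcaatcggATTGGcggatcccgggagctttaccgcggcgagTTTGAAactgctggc
Mcm5 (chr8:75109349-75109508, plus strand): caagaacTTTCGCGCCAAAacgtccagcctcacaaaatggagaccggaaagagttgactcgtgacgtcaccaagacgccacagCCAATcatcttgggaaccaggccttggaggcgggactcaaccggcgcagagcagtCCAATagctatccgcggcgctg
Cdkn1b (chr6:134920241-134920400, plus strand): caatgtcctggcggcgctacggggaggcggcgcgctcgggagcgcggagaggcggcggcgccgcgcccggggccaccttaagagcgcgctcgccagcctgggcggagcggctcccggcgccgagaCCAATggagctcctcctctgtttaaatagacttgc

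None of the members passed the test between Mertk KO and Mertk WT, while several proliferation genes were counted at lower levels in every knockout library than in any wild-type library. Mki67 was the member of smallest p and missed the threshold at an adjusted p of 0.064 (edgeR). Mki67, Top2a, Rrm2, Ccna2 and Plk1 passed the filter on low counts only through the Mertk WT libraries, where they are high. Their p-values and calls are therefore given as a description and support nothing further. With edgeR's quasi-likelihood F test at an adjusted p of 0.05 over all 13447 genes tested, 0 of 35 tested members were called, beside 0.223% of all genes. At an unadjusted p under 0.05, 2 members were higher (2.42% of all genes) and 8 lower (3.15% of all genes). Mki67, Top2a, Rrm2, Ccna2 and Plk1 are among these 8, so the count of lower members supports nothing further. The 5 members outside the 35, Ccnb2, Aurkb, Pbk, Cenpf and Birc5, were too low to be tested. Over the tested members the median log2 fold change was -0.14, with 10 above and 25 below 0, against -0.001 for all genes tested; the 15 G1 regulators had a median of -0.11 and the 20 proliferation genes tested one of -0.20.

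The groups of 4 did not overlap for 10 of the 40 members. Cdkn1b was higher in all knockout libraries (2.5% of the members, 1.74% of all genes tested). Lower were 9 members (22.5%, beside 1.78% of all genes tested), namely Mki67, Ccnd2, E2f3, Mcm2, Rrm2, Ccna2, Plk1, Pbk and Cenpf. Pbk and Cenpf had not been tested, so the tested members that were lower without overlap numbered 7 of 35. These 7 include Mki67, Rrm2, Ccna2 and Plk1, so the limit of the filter given above holds for this count too. For Mki67, Ccnd2, Mcm2, Plk1 and Pbk the 4 Mertk KO libraries were also below all 11 other libraries, a relation that 0.489% of the 14520 genes showed. It was noticed after the values were seen. For Pbk it rests on 0.0770 CPM in Bai1 Tg neg 1 beside 0.0692 CPM in Mertk KO 3, both under the 3-count floor. For Plk1 it rests on 0.349 CPM in Bai1 Tg neg 4 beside 0.322 CPM in Mertk KO 1. Gaps this small at such low counts do not separate the libraries. In bulk RNA, fewer cells of a type and less RNA per cell cannot be told apart.

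Mki67 (chr7:135689788-135716379) was at 0.483, 0.201, 0.346 and 0.354 CPM in Mertk KO 1 to 4. In Mertk WT 1 to 4 it was at 1.48, 5.12, 1.20 and 2.29 CPM. All knockout values were below all wild-type values, and Mertk WT 2 stood highest. The log2 value of the fold change was -2.83 with an SE of 0.533 (adjusted p = 0.064, edgeR), resting on 23 against 156 counts. Without Mertk WT 2 it was -2.21 (adjusted p = 0.188, edgeR), and with the 6 libraries of first tag number 17 alone it was -2.88 (adjusted p = 0.387, edgeR). It was called by DESeq2 (adjusted p = 0.000738), edgeR without the filter on low counts (0.000599) and edgeR with all 15 libraries in 1 fit (0.0176). These settings called 0.459%, 0.291% and 0.303% of all genes they tested. Mki67 passed the filter only through groups where it is high, so these calls are a description and support nothing further.

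Top2a was at 0.322, 0.201, 1.45 and 0.354 CPM in Mertk KO 1 to 4 and at 1.61, 4.80, 1.20 and 2.39 CPM in Mertk WT 1 to 4. Mertk KO 3 stood apart from the other knockout libraries and overlapped the wild-type range, and Mertk WT 2 was again highest. Its log2 fold change was -2.12 ± 0.626 (adjusted p = 0.469, edgeR).

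Of the 8 G1 cyclins and kinases, 0 passed the test in this comparison, and their median log2 fold change was -0.14. Ccnd2, the D-type cyclin with the clearest separation, was at 94.7, 106, 109.7 and 101 CPM in Mertk KO 1 to 4. In Mertk WT 1 to 4 it was at 116, 166, 124 and 144 CPM. The ranges did not overlap, but the gap between them was small beside the spread of the wild-type libraries. Its log2 fold change was -0.42 ± 0.105 (adjusted p = 0.28, edgeR), and edgeR without the filter on low counts called it (adjusted p = 0.0319).

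The other D-type cyclins did not separate the groups. Ccnd1 was at 197, 279, 250.2 and 204 CPM in Mertk KO 1 to 4 and at 272, 277, 222 and 248 CPM in Mertk WT 1 to 4 (log2 fold change -0.14 ± 0.115). Ccnd3 was at 180.4, 226.98, 208 and 202 CPM in the knockout and at 190.5, 172, 219.9 and 209 CPM in the wild type (0.04 ± 0.098). The ranges of both genes overlapped over most of their length. Cdk4, partner of the D-type cyclins, was at 60.9, 61.2, 50.3 and 63.5 CPM in the knockout and at 65.7, 62.1, 59.6 and 65.8 CPM in the wild type (-0.11 ± 0.09), Mertk KO 3 being lowest. Cdk2 was at 138, 111, 128 and 139.7 CPM against 128, 93.8, 108 and 115 CPM (0.21 ± 0.105, adjusted p = 0.893, edgeR), with overlapping ranges. Cdk6 (-0.14), Ccne1 (-0.56) and Ccne2 (-0.28), with mean levels of 0.841 to 5.11 CPM in these groups, also gave no call.

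Cdkn1b (chr6:134920401-134925513) encodes p27, the CDK inhibitor found in many resting cells. It was at 157, 167, 157 and 158 CPM in Mertk KO 1 to 4 and at 126, 115, 134 and 124 CPM in Mertk WT 1 to 4. Every knockout library was above every wild-type library, with little spread inside either group. Its log2 fold change was 0.36 ± 0.074 (adjusted p = 0.114, edgeR); DESeq2 (adjusted p = 0.00328) and edgeR with all 15 libraries in 1 fit (0.0154) called it. The knockout range overlapped the Bai1 Tg pos values of 161, 141 and 158 CPM. It lay above the Bai1 Tg neg values of 153, 155, 144 and 147 CPM without overlap. The Mertk WT libraries were below every other library. The Mertk and Bai1 sets also differ in first tag number.

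The other CDK inhibitors overlapped between the groups. Cdkn1a, the p21 inhibitor, averaged 10.1 ± 3.39 CPM in the knockout and 7.41 ± 2.36 CPM in the wild type, and Cdkn1c, the p57 inhibitor, 6.34 ± 2.54 and 4.77 ± 1.63 CPM. Cdkn2c was near 1 CPM in both groups. Among the pocket proteins, Rb1 averaged 18.99 ± 3.71 and 20.5 ± 2.71 CPM, and Rbl2, the pocket protein of the DREAM complex, 50.1 ± 4.06 and 50.4 ± 7.93 CPM.

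E2f3, an activating E2F, was at 26.4, 26.9, 26.7 and 27.2 CPM in Mertk KO 1 to 4 and at 32.5, 37.7, 31.4 and 32.4 CPM in Mertk WT 1 to 4. The knockout libraries were all lower and lay within 1 CPM of each other. The log2 fold change was -0.33 ± 0.093 (adjusted p = 0.429, edgeR). Bai1 Tg neg libraries, at 26.3, 33.5, 28.4 and 27.9 CPM, reached down to the knockout values.

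**Figure D2:**
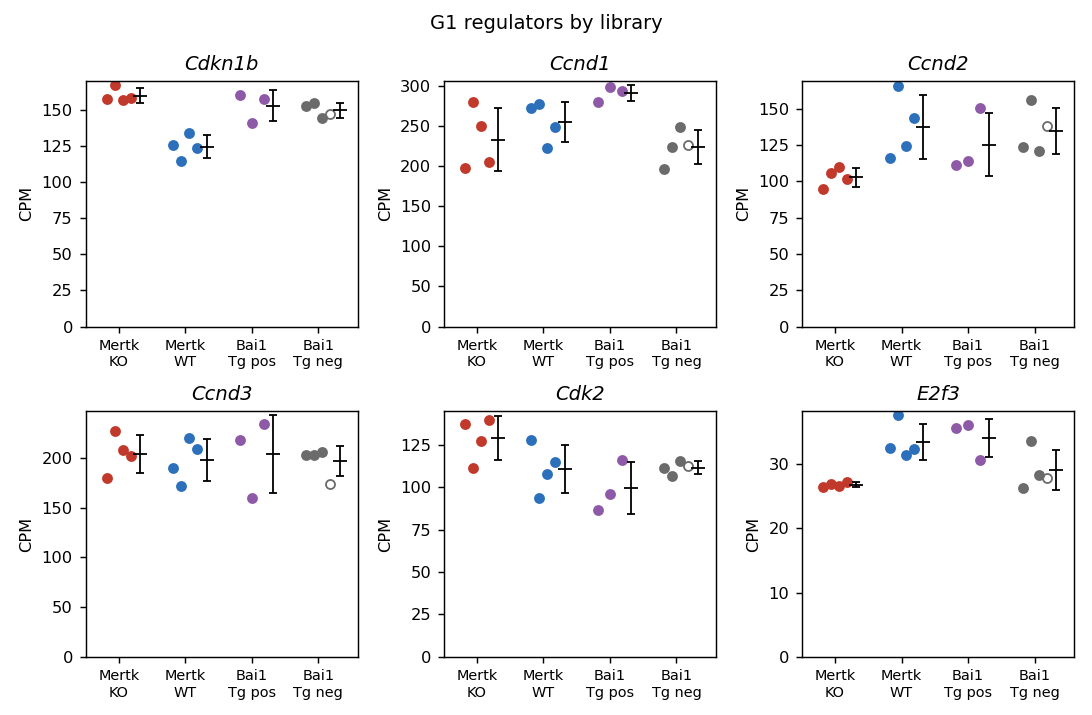
CPM of 6 G1 regulators, with 1 point per library, black bars at the mean ± SD to the right of each group, and the library labelled Bai1 Tg neg 4 drawn open. Cdkn1b is at 115 to 134 CPM in Mertk WT and at 141 CPM or more in the other 3 groups, Ccnd1 is highest in Bai1 Tg pos, and E2f3 has its narrowest spread in Mertk KO.

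Replication genes stayed within the spread of the groups apart from Mcm2 and Rrm2. Of the 6 subunits of the MCM helicase, which opens DNA for replication, 0 passed the test and their median log2 fold change was -0.15. Mcm2 was at 10.04, 9.74, 9.90 and 9.02 CPM in Mertk KO 1 to 4 and at 12.2, 13.3, 11.5 and 13.9 CPM in Mertk WT 1 to 4 (log2 fold change -0.40 ± 0.13, adjusted p = 0.567, edgeR). All knockout values were lower, with a narrow gap between the groups. Mcm3, Mcm4, Mcm5, Mcm6 and Mcm7 gave -0.26, -0.05, -0.22, 0.23 and -0.08, all with overlapping ranges.

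Rrm2, the ribonucleotide reductase subunit made in S phase, was at 0.591, 0.269, 0.554 and 0.118 CPM in Mertk KO 1 to 4 and at 1.88, 3.43, 1.07 and 0.937 CPM in Mertk WT 1 to 4. The ranges did not overlap. Its log2 fold change was -2.26 ± 0.565 (adjusted p = 0.283, edgeR), on 25 against 116 counts, and edgeR without the filter on low counts called it (adjusted p = 0.0445). Its partner subunit Rrm1 averaged 24.4 ± 2.93 and 24.0 ± 4.94 CPM, and Tyms, the thymidylate synthase, 5.01 ± 1.41 and 5.65 ± 0.271 CPM.

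Among the cyclins of S phase and mitosis, Ccna2 was at 1.77, 0.201, 0.554 and 1.47 CPM in Mertk KO 1 to 4 and at 2.22, 3.27, 2.00 and 2.71 CPM in Mertk WT 1 to 4. The groups did not overlap, but the knockout libraries were widely spread (log2 fold change -1.32 ± 0.504, adjusted p = 0.765, edgeR). Ccnb1, a mitotic cyclin, gave -1.17 ± 0.674 with overlapping groups, and Ccnb2, not tested, had 21 against 83 counts. Cdk1, their kinase, had a mean of 17.99 ± 1.90 CPM in the knockout and 17.1 ± 3.34 CPM in the wild type. Over all libraries it was at 4.65 CPM per kb, with Ccna2, Ccnb1 and Ccnb2 at 0.162 to 0.555 CPM per kb.

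Plk1, a kinase of mitotic entry, was at 0.322, 0.269, 0.208 and 0.236 CPM in Mertk KO 1 to 4 and at 0.942, 1.31, 0.734 and 0.728 CPM in Mertk WT 1 to 4. All 4 knockout values were lower (log2 fold change -1.82 ± 0.472, adjusted p = 0.335, edgeR; 17 against 56 counts). Pbk, a mitotic protein kinase (chr14:65805837-65817822), was at 0.0537, 0.0672, 0.0692 and 0 CPM in the knockout and at 1.21, 1.85, 0.534 and 1.66 CPM in the wild type. The knockout libraries held 1 count or none each. Their 3 counts in all against 76 give a ratio of 0.0351 per total count (95% exact interval 0.00709 to 0.107, counting error only). The filter on low counts removed Pbk here. Without the filter edgeR gave an adjusted p of 0.000593, and DESeq2 gave 0.00126. With all 15 libraries edgeR gave 0.00927, and without Mertk WT 3 it gave 0.0154. In both edgeR fits that kept the filter, Pbk passed it only through groups where it is high. These values are a description and support nothing further. Aurka, the spindle pole kinase, was at 1.99, 2.15, 1.59 and 2.30 CPM in the knockout and at 1.95, 2.34, 2.003 and 1.25 CPM in the wild type, with overlapping ranges. Aurkb, its centromere counterpart, had 15 against 35 counts.

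Spindle and checkpoint genes did not share one direction. Cenpf had 3 counts over the knockout libraries and 36 over the wild-type ones, a ratio of 0.0742 (95% exact interval 0.0146 to 0.235). Cdc20 stood the other way, at 8.70, 7.39, 5.61 and 7.78 CPM in Mertk KO 1 to 4 and at 6.39, 4.47, 5.01 and 3.02 CPM in Mertk WT 1 to 4 (log2 fold change 0.63 ± 0.234, adjusted p = 0.744, edgeR). Its ranges overlapped, and it shares exon bases with Elovl1, as given above. Kif11, the motor that separates spindle poles, was at 0.913, 0.604, 1.25 and 1.47 CPM in the knockout and at 1.41, 2.13, 1.47 and 1.04 CPM in the wild type (-0.53 ± 0.392), also overlapping. Cenpe, a kinetochore motor, and Mad2l1, a checkpoint protein, gave -0.14 and -0.09, and Birc5 (survivin) had 18 against 27 counts.

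**Figure D3:**
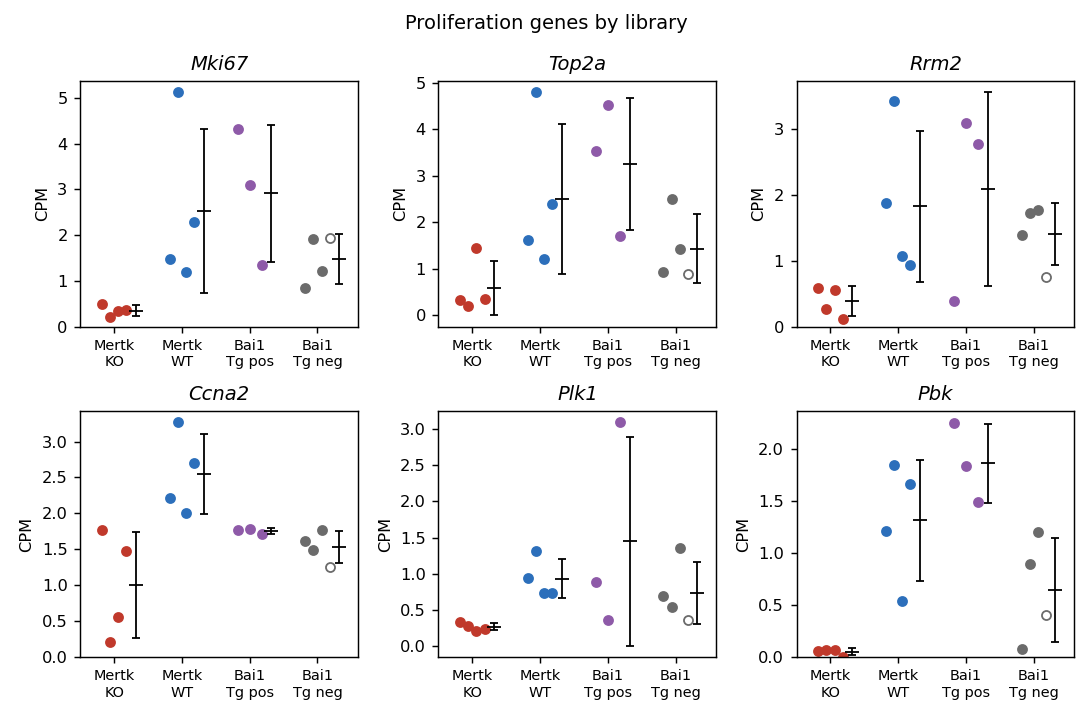
CPM of 6 proliferation genes, with 1 point per library, black bars at the mean ± SD to the right of each group, and the library labelled Bai1 Tg neg 4 drawn open. Mertk KO libraries are below all Mertk WT libraries for each gene but Top2a, where Mertk KO 3 (1.45 CPM) overlaps, and Mertk WT 2 is the highest Mertk library for all 6 genes.

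Summed over the 25 proliferation genes, Mertk KO libraries held 113 ± 4.56 CPM (SD, n = 4) and Mertk WT libraries 127 ± 19.4 CPM (n = 4), with overlapping ranges of 108 to 117 and 109 to 154 CPM. That sum is carried by Rrm1, Cdk1 and the MCM genes. Over the 20 proliferation genes that no library holds above 10 CPM, a choice made after the values were seen, the sums were 34.6 to 37.5 CPM in the knockout and 40.1 to 63.4 CPM in the wild type. Mertk WT 2 had the highest of these sums and was the highest of the 8 Mertk libraries for 16 of the 25 genes. The 15 G1 regulators summed to 1008 ± 51.7 CPM in the knockout and 1015 ± 19.01 CPM in the wild type.

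Markers of other cells varied among the same libraries. The 14 rod markers, all detected in every library, summed to 3730 CPM in Mertk WT 2, 2847 CPM in Mertk WT 3 and between 896 and 1604 CPM in the remaining 6 libraries of that set. The 12 endothelial markers, of which 4 were detected in every library and Erg was at 0 throughout, summed to 11.02 to 20.5 CPM in Mertk KO libraries and 18.5 to 29.3 CPM in the wild type. Of 13 microglia and macrophage markers 12 averaged under 1 CPM, with sums of 6.25 to 15.0 and 6.47 to 9.21 CPM. The 6 retinal progenitor markers summed to at most 3.81 CPM in any library, with Atoh7 at 0 throughout. The part of these cells in the proliferation gene levels was not tested. Without Mertk WT 2, 10 members instead of 9 were lower in Mertk KO without overlap (2.56% of all genes tested), and Cdkn1b was still the one higher.

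**Figure D4:**
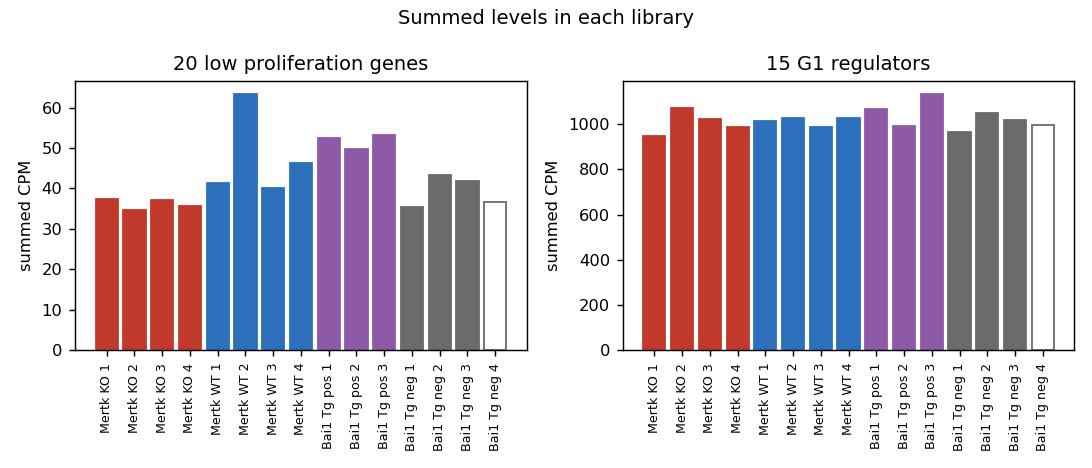
Summed CPM in each of the 15 libraries over 20 low proliferation genes (left) and 15 G1 regulators (right), coloured by group, with the library labelled Bai1 Tg neg 4 left white. The low proliferation genes sum to 34.6 to 37.5 CPM in Mertk KO and peak at 63.4 CPM in Mertk WT 2, while the G1 sums stay between 949 and 1135 CPM.

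Other genes of the same pathways gave 1 call. Of 46 further G2 and M phase genes 23 were tested and 1 passed, Bub1b, a spindle checkpoint kinase, which rose from 18.7 ± 2.51 CPM in the wild type to 40.4 ± 2.31 CPM in the knockout (log2 fold change 1.11 ± 0.112, adjusted p = 0.000966, edgeR). Its direction was opposite to that of the list, whose median was -0.37. Bub1b lies on chromosome 2, 10.1 Mb from Mertk, and 7 of the 46 genes lie within 20 Mb of Mertk. The part of this position in the change of Bub1b was not tested. Kif4, a chromosome motor, had 1.02 ± 0.452 CPM in the knockout and 2.30 ± 0.81 CPM in the wild type (-1.17 ± 0.408, adjusted p = 0.65, edgeR).

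Of 30 further S phase genes 26 were tested and 0 passed (median -0.15, with 21 of 26 below 0). Pcna, the polymerase clamp, was at 29.9 ± 4.43 CPM in the knockout and 35.6 ± 2.85 CPM in the wild type, and lies 3.5 Mb from Mertk. Of 24 further G1 regulators 20 were tested and 0 passed (median 0.01), led by Ccng1, a p53 target, at 59.3 ± 6.62 and 69.4 ± 7.28 CPM, and Tfdp1, the E2F partner, at 24.5 ± 3.50 and 27.9 ± 1.55 CPM. The 5 MuvB genes were all tested and 0 passed (median 0.02), with Lin52 at 21.0 ± 2.51 and 17.7 ± 1.31 CPM and Rbbp4 at 108 ± 3.15 and 119 ± 10.1 CPM. Between the Bai1 groups 27 of the S phase genes, 29 of the G2 and M phase genes, 21 of the G1 regulators and 5 MuvB genes were tested, with 0 called. Among the 40 members, Aurka is the one on chromosome 2.

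Between Bai1 Tg pos and Bai1 Tg neg none of the members passed the test either, and the members that separated the groups were higher with the transgene label. Of 39 tested members 0 were called, beside 0.0144% of all 13855 genes, and 5 members were higher and 0 lower at an unadjusted p under 0.05 (2.77% and 2.41% of all genes). Among these 5, Pbk passed the filter on low counts only through Bai1 Tg pos, where it is high, and Kif11 rests on a single library. Counts that include Pbk therefore support nothing further. The median log2 fold change was 0.16 over the members, with 27 above and 12 below 0, and 0 over all genes tested. With Bai1 Tg neg 4 left out, 0 of 37 tested members were called, beside 5 of 13562 genes. At an unadjusted p under 0.05, 1 member instead of 5 was higher (2.3% of all genes) and 0 were lower (2.05%). The median was then 0.22, with 28 above and 9 below 0. The groups did not overlap for 4 members, Ccnd1, Aurka, Pbk and Birc5, all higher (10% of the members, 2.79% of all genes tested), and for 0 that were lower (3.41%). Birc5 had not been tested, so the tested members that were higher without overlap numbered 3 of 39. Leaving out the library labelled Bai1 Tg neg 4 left the same 4 members (4.68% of all genes tested) and again 0 lower (5.58%).

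Ccnd1 (chr7:144929931-144939869) was at 279, 299 and 293 CPM in Bai1 Tg pos 1 to 3 and at 196, 223, 249 and 226 CPM in Bai1 Tg neg 1 to 4. Every Bai1 Tg pos library was above every Bai1 Tg neg library, and the lowest of them was level with the highest Mertk library, Mertk KO 2 at 279 CPM. The log2 fold change was 0.38 ± 0.077 (adjusted p = 0.384, edgeR), and without Bai1 Tg neg 4 it was 0.39 (adjusted p = 0.63, edgeR). DESeq2 (adjusted p = 0.0041) and edgeR without the filter on low counts (0.000572) called it, beside 0.141% and 0.372% of all genes they tested.

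Aurka was at 2.75, 3.09 and 2.83 CPM in Bai1 Tg pos and at 1.54, 1.79, 1.14 and 1.40 CPM in Bai1 Tg neg (log2 fold change 0.98 ± 0.399, adjusted p = 0.948, edgeR; 0.96 without Bai1 Tg neg 4). The 3 Bai1 Tg pos values were also above all 8 Mertk libraries. Pbk was at 2.26, 1.84 and 1.495 CPM against 0.077, 0.894, 1.21 and 0.399 CPM (1.52 ± 0.674, adjusted p = 0.948, edgeR; 1.34 without Bai1 Tg neg 4), with the Bai1 Tg neg libraries widely spread. Given the limit of the filter stated above, the p-value of Pbk supports nothing further. Birc5, not tested, had 25 against 17 counts.

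Mki67 and Top2a overlapped between these groups. Mki67 was at 4.32, 3.09 and 1.34 CPM in Bai1 Tg pos and at 0.847, 1.91, 1.21 and 1.95 CPM in Bai1 Tg neg (log2 fold change 0.96 ± 0.492, adjusted p = 0.953, edgeR; 1.12 without Bai1 Tg neg 4). Top2a was at 3.53, 4.52 and 1.71 CPM against 0.924, 2.502, 1.42 and 0.899 CPM (1.18 ± 0.487, adjusted p = 0.948, edgeR; 1.00 without Bai1 Tg neg 4). Bai1 Tg pos 3 was the library inside the Bai1 Tg neg range for both.

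Kif11 rested on a single library. It was at 6.77 CPM in Bai1 Tg pos 1, against 0.595 and 1.18 CPM in Bai1 Tg pos 2 and 3 and 0.616, 1.13, 1.21 and 0.849 CPM in Bai1 Tg neg. Its log2 fold change of 1.54 ± 0.71 (adjusted p = 0.948, edgeR) became -0.10 (adjusted p = 0.999, edgeR) without that library and 1.49 without Bai1 Tg neg 4. Cdk6 was also highest there, at 11.2 CPM, with every other library at 7.18 CPM or below.

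The other members given in every library overlapped or spread widely. Ccnd2 was at 112, 114 and 150.3 CPM in Bai1 Tg pos and at 123, 156, 121 and 138 CPM in Bai1 Tg neg, and Ccnd3 at 218, 159.8 and 234 CPM against 203, 203, 207 and 174 CPM. Cdk2 was at 86.6, 95.8 and 116 CPM against 112, 106, 116 and 113 CPM, and E2f3 at 35.6, 36.0 and 30.7 CPM against the Bai1 Tg neg values given above. All of these ranges overlapped. Cdk4 was at 56.1, 57.0 and 64.8 CPM against 60.4, 59.5, 60.7 and 62.4 CPM, again with overlap.

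Rrm2 was at 0.392, 3.09 and 2.78 CPM in Bai1 Tg pos 1 to 3 and at 1.39, 1.73, 1.77 and 0.749 CPM in Bai1 Tg neg 1 to 4. Plk1 was at 0.883, 0.357 and 3.10 CPM against 0.693, 0.536, 1.35 and 0.349 CPM. Both genes spread more inside Bai1 Tg pos than inside Bai1 Tg neg. Mcm2 was at 10.3, 16.6 and 17.1 CPM against 11.9, 12.5, 12.3 and 13.2 CPM, Bai1 Tg pos 1 being the lowest and the other Bai1 Tg pos libraries the highest. Cdc20 was at 3.83, 5.83 and 5.02 CPM against 5.39, 6.14, 5.32 and 5.19 CPM, and Ccna2 at 1.77, 1.78 and 1.71 CPM against 1.62, 1.49, 1.77 and 1.25 CPM. The ranges of Mcm2, Cdc20 and Ccna2 overlapped.

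Summed proliferation genes were at 134 to 139 CPM in Bai1 Tg pos (136 ± 2.73, n = 3) and 110.3 to 124 CPM in Bai1 Tg neg (119 ± 6.22, n = 4), without overlap, Bai1 Tg neg 4 being the highest of its labelled group. The 20 low genes summed to 49.6 to 53.2 and 35.4 to 43.4 CPM, also without overlap and with Bai1 Tg neg 4 (36.6 CPM) inside its labelled group. Smooth muscle and pericyte markers, 6 of 8 detected in every library, likewise summed higher in Bai1 Tg pos, at 328 to 509 CPM against 257 to 307 CPM (257 to 295 CPM without Bai1 Tg neg 4), and their part in this result was not tested. Rod markers summed to 266 to 798 and 204 to 475 CPM, and endothelial markers to 16.9 to 21.8 and 16.2 to 22.2 CPM.

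**Figure D5:**
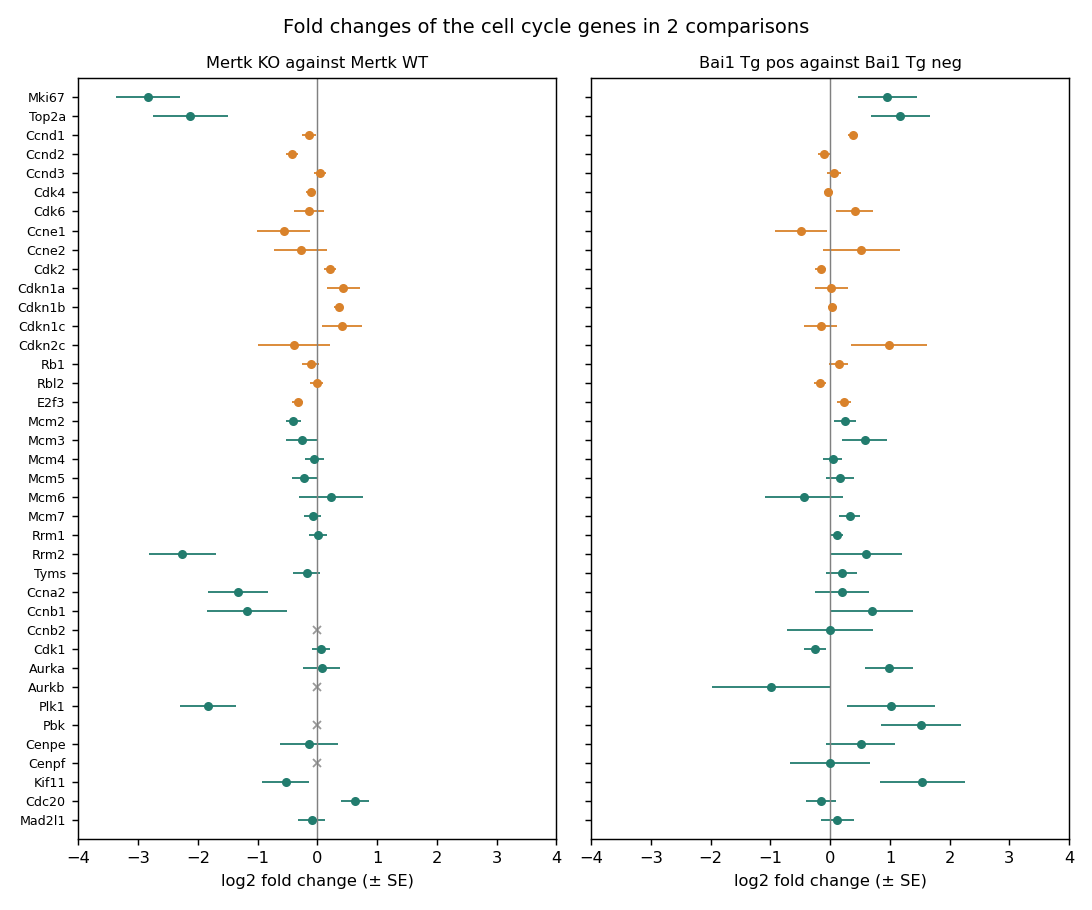
Log2 fold changes (points, with SE as bars) of 39 cell cycle genes for Mertk KO against Mertk WT (left) and for Bai1 Tg pos relative to Bai1 Tg neg (right), orange for G1 regulators and green for proliferation genes; grey crosses at 0 mark 4 genes not tested on the left, and Birc5, tested in neither, is left out. Mki67 is at -2.83 on the left and 0.96 on the right, and 25 of 35 points lie below 0 on the left and 12 of 39 on the right.

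The Mertk KO effect and the Bai1 effect were set against each other in a fit of all 15 libraries, and Pbk was the one member that passed (1 of 39 tested members, beside 0.103% of 14520 genes). The difference in log2 fold change was -6.12 ± 1.05 (adjusted p = 0.0154, edgeR). All 4 Mertk KO libraries had lower Pbk than any Mertk WT library, and all 3 Bai1 Tg pos libraries had more than any Bai1 Tg neg library. Pbk had been removed by the filter on low counts in Mertk KO against Mertk WT and entered this fit through the groups where it is high, so its call is given as a description and supports nothing further. The size of the fitted value depends on libraries at 0 or 1 count and is no bound. Over 6 alternatives its adjusted p ran from 0.000246 to 0.0686, being 0.0331 without Bai1 Tg neg 4, 0.0374 without Mertk WT 2 and 0.0686 with limma-voom.

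The difference for Mki67 was -3.79 ± 0.741 (adjusted p = 0.0503, edgeR), just outside the threshold. RLE size factors (0.0453), no filter on low counts (0.00367) and DESeq2 (0.00118) brought it inside. These settings called 0.124%, 0.147% and 0.492% of all genes they tested. Mki67 and Top2a too entered this fit only through the groups where they are high, so their calls are a description and support nothing further. The difference for Top2a was -3.29 ± 0.831 (adjusted p = 0.184, edgeR; DESeq2 0.0262), for E2f3 -0.56 ± 0.141 (0.184, edgeR) and for Ccnd1 -0.52 ± 0.15 (0.319, edgeR). Without Bai1 Tg neg 4 these were -3.95 for Mki67 (adjusted p = 0.0722, edgeR), -3.12 for Top2a (0.321), -0.54 for E2f3 (0.319) and -0.52 for Ccnd1 (0.401). The median difference was -0.40 over the 39 members, -0.08 over the G1 regulators and -0.74 over the 24 proliferation genes tested, beside 0.003 over all genes tested; without Bai1 Tg neg 4 the median over the 39 members was -0.50.

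The control libraries of both sets, Mertk WT and Bai1 Tg neg, were compared because both carry wild-type Mertk. Of 38 tested members 0 passed, beside 0.431% of 13459 genes, and the median log2 fold change of the members was 0.14. Without Bai1 Tg neg 4, 0 of 38 passed, beside 28 of 13710 genes, and the median was 0.13. Cdkn1b was lower in Mertk WT without overlap (1 member, 2.79% of all genes tested; log2 fold change -0.27 ± 0.07, adjusted p = 0.174, edgeR). DESeq2 called it (0.037), with 1.53% of all genes. Without Bai1 Tg neg 4 it was -0.28 (adjusted p = 0.334, edgeR). With that library left out, 4.46% of all genes tested were lower without overlap and 4.49% were higher. Ccna2 was higher in Mertk WT without overlap (1 member, 2.96%; 0.74 ± 0.3, adjusted p = 0.52, edgeR; 0.65 and 0.738 without Bai1 Tg neg 4), against 1.62, 1.49, 1.77 and 1.25 CPM in Bai1 Tg neg 1 to 4. These groups also differ in first tag number and in rod markers, which summed to 896 to 3730 CPM in Mertk WT and 204 to 475 CPM in Bai1 Tg neg, and the part of either was not tested.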

How the data were processed

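RPE RNA of 15 libraries in 4 groups was analysed. The authors deposited a table of raw fragment counts with 46078 Ensembl gene identifiers. Poly-A-selected RNA went into TruSeq libraries, per the labels' protocols. The submitters' processing notes name STAR and GRCm38, and the authors counted exon fragments with both ends mapped with featureCounts 1.5.0 without a strand option, per the file headers. The sources used here give neither the STAR version nor the annotation release. Symbols were matched by identifier for 45143 genes. Coordinates are those of the deposited table.

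CPM were computed with TMM factors over all 15 libraries. Comparisons used edgeR 4.0.16 (TMM, filterByExpr, robust quasi-likelihood F test, two-sided) in R 4.3.3, with Benjamini-Hochberg adjustment over all genes tested and a threshold of 0.05; only the groups compared entered each fit, except the difference of the effects, fitted on all 15. The SE of a log2 fold change came from its F statistic. Chi-square per degree of freedom between replicates was at least 5.04, so each library counted once. Alternatives were RLE factors, no filter, DESeq2 1.42.0, limma-voom (limma 3.58.1), all 15 libraries in 1 fit, the replicate block, the first tag number as a covariate, first tag number 17 alone, and leaving out each library. The fit was tested on data simulated from these counts. Near-identical copies of the members were looked for using blastn 2.17.0 (at least 95% identity over 150 bases). Intervals and floors cover counting error only.

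The members and lists were chosen with earlier results of these data known. Values in every library are given for Mki67 and Cdkn1b, up to 10 members of smallest unadjusted p in Mertk KO against Mertk WT, up to 5 in each other comparison, and the 6 highest in CPM per kb. Pathway genes named passed the test or had the 2 smallest p of their list; a gene that this rule names is not reported here. Cenpf, Birc5, Cdk6 and other members given by mean, range or count fall outside that rule and were named after their values were seen.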

Additional observations from a re-analysis of the deposited data

Results flagged for a closer look

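Single libraries stood away from the rest of their group of 4 for 4 of the members given in every library, by Dixon's test, which chance meets in about 1 of 20 groups; 51 groups were tested. Cdkn1b was at 167 CPM in Mertk KO 2, with the other knockout libraries at 157 to 158 CPM. E2f3 was at 37.7 CPM in Mertk WT 2, with the others at 31.4 to 32.5 CPM. Top2a was at 1.45 CPM in Mertk KO 3, with the others at 0.201 to 0.354 CPM, which is close to the 3-count floor. Ccnd3 was at 174 CPM in the library labelled Bai1 Tg neg 4, which also held Adgrb1 against its label, with the others at 203 to 207 CPM.

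The Mertk KO and Bai1 effects on Pbk differed by -6.12 on the log2 scale in the test of the difference itself (adjusted p = 0.0154, edgeR), a call that limma-voom did not make (adjusted p = 0.0686). The Mertk KO libraries held 3 counts in all, and Pbk passed the filter on low counts only through the groups where it is high, so the call supports nothing further. Pbk was lower in 4 of 4 Mertk KO libraries than in any Mertk WT library and higher in 3 of 3 Bai1 Tg pos libraries than in any Bai1 Tg neg library.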

How the results depend on the processing

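Named members kept their direction under all alternatives run, except Kif11 between the Bai1 groups, which turned to -0.10 without Bai1 Tg pos 1, the library that held its high value, and ran up to 2.03 without Bai1 Tg pos 2. For Mertk KO against Mertk WT (30 genes and 0 members called), no filter on low counts called 69 genes and 4 members, and DESeq2 75 and 3. All 15 libraries in 1 fit called 44 genes and 3 members. The 6 libraries of first tag number 17 called 14 genes, with fewer samples. Leaving out a library gave 16 (without Mertk KO 4) to 31 genes and 0 to 1 members. For Bai1 Tg pos against Bai1 Tg neg (2 genes, 0 members), no filter called 85 genes and 1 member, DESeq2 26 and 1, limma-voom 0 genes, and all 15 libraries in 1 fit 0 genes; leaving out a library gave 0 (without Bai1 Tg neg 3) to 54 genes (without Bai1 Tg pos 3). For Mertk WT against Bai1 Tg neg (58 genes, 0 members), no filter called 138 genes, DESeq2 249 genes and 1 member, and leaving out a library gave 13 (without Bai1 Tg neg 1) to 89 genes (without Mertk WT 4). For the difference of effects (15 genes, 1 member), no filter called 37 genes and 2 members, DESeq2 78 and 3, and RLE factors 18 and 2. There limma-voom called 0 members, and the 6 alternatives called 16 to 78 genes. The cause of these shifts was not tested. The log2 ratio of the summed proliferation genes moved from -0.16 to -0.49 (Mertk KO to Mertk WT) with the mean of log2(CPM + 0.5), and from 0.20 to 0.40 (Bai1 Tg pos to Bai1 Tg neg) over the 20 low genes. With the replicate block, 24 genes and 0 members were called for Mertk and 4 genes and 0 members for Bai1; same-numbered libraries correlated at -0.0865 to 0.207, so the numbers did not pair them. With 3 counts as the floor, 11 proliferation genes were too low in some library for a small difference to be detectable.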
